A study of Mus musculus with 5 samples.

Results

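The genes described here encode 8 liver-enriched transcription factors, Hnf4a, Foxa1, Foxa2, Foxa3, Cebpa, Onecut1, Nr5a2 and Nr1h4. They were chosen by gene name, and all non-control probes annotated to them were taken: 11 of the 41174 probes on the array, which name 18327 genes. Hnf4a had 3 probes, here called A, B and C, Cebpa had 2, A and B, and the other genes had 1 each. All 11 probes were well above background on at least 1 array.

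Total RNA of 5 cell populations was hybridised to one-colour Agilent mouse arrays, 1 array each. ES was the E14 line of mouse embryonic stem cells and Hepa1-6 a mouse hepatoma line, a liver cancer line grown in high-glucose DMEM with fetal calf serum. EHe was the hybrid made by fusing E14 with Hepa1-6 cells, kept like the ES cells in medium with leukemia inhibitory factor. EHeD7 and EHeD14 were EHe cells differentiated in vitro for 7 and 14 days. Per the labels they were a monolayer on gelatin with fetal calf serum, whereas the study's methods describe differentiation as embryoid bodies. The fused cells carried drug-resistance and fluorescence markers, and hybrid colonies were picked, so EHe stands for 1 hybrid line rather than for fusion in general. The question of the design was how the expression of the hybrid, before and after differentiation, relates to that of its 2 parents. With 1 array per condition no difference had a replicate check, and every error given is that of spots within an array.

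Liver-enriched transcription factors act in combination: no single one of them is specific to the hepatocyte, but together they bind the promoters and enhancers of genes for plasma proteins, lipid transport and bile acid metabolism, and they bind one another's genes. Foxa1, Foxa2 and Foxa3 are forkhead proteins that can open compact chromatin and act from the first endoderm onwards. Hnf4a is the nuclear receptor that governs much of hepatocyte gene expression, Cebpa a basic leucine zipper factor of mature hepatocytes, Onecut1 a factor of liver and bile duct development, Nr1h4 the bile acid receptor FXR, and Nr5a2 a nuclear receptor that works in bile acid synthesis in the liver and in the control of Pou5f1 in pluripotent cells.

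Upstream sequences were searched for short binding motifs of the same factors, because the factors are known to bind one another's genes. Windows of Foxa1 and Nr5a2 that held a match are shown, and both windows of Hnf4a, of which 1 held a match and the other none. The RefSeq table of GRCm38.p6 held 12 windows for the 8 genes among 32851 in all, each of 300 bases, 250 before to 50 after a transcript start. The motifs searched, on both strands, were TGTTTAC and TATTTAC for forkhead proteins, TTGCGCAA for CCAAT/enhancer binding proteins, AGGTCA for nuclear receptors, CAAAGTCCA for Hnf4a, the palindromic motif of Hnf1 proteins and ATCAATA for Onecut proteins. Capitals mark the match, and each sequence is written 5′ to 3′ on the strand of the gene.
Foxa1, chr12:57546062-57546361, minus strand: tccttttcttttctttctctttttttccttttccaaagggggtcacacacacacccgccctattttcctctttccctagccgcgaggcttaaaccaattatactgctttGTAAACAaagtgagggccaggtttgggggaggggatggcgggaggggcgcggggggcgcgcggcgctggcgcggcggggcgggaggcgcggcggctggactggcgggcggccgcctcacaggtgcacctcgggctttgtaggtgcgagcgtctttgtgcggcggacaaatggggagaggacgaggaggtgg
Hnf4a, first window, chr2:163506607-163506906, plus strand: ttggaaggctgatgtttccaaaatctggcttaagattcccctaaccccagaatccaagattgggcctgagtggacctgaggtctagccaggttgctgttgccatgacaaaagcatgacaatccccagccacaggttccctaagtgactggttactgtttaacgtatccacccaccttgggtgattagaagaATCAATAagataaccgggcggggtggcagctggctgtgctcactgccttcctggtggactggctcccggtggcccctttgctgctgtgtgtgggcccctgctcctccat
Hnf4a, second window, chr2:163546905-163547204, plus strand: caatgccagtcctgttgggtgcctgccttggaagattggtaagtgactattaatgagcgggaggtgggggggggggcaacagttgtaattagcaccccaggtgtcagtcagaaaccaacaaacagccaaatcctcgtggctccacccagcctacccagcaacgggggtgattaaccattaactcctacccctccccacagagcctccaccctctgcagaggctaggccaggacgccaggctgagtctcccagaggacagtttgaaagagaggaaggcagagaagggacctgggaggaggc
Nr5a2, chr1:136960399-136960698, minus strand: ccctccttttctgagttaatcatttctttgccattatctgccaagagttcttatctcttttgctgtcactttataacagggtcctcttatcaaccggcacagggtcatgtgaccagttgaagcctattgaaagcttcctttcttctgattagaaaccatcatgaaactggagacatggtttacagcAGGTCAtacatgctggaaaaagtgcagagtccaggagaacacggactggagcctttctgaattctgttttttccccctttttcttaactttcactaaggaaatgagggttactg

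The Foxa1 window held the forkhead motif TGTTTAC on the reverse strand, beginning 141 bases before the start. This motif occurred in 3.65% of all windows. The first Hnf4a window held the Onecut motif ATCAATA, 59 bases before the start, a motif found in 2.05% of all windows, and the second Hnf4a window held none of the 7 motifs. Hnf4a can start at either of its windows, and which transcripts its probes read was not analysed here. The Nr5a2 window held AGGTCA 64 bases before the start, a short motif present in 16.3% of all windows. Besides these, Foxa2 held ATCAATA and Nr1h4 held AGGTCA, each on the reverse strand 214 bases before the start. No member window held TATTTAC, TTGCGCAA, CAAAGTCCA or the Hnf1 palindrome, which occurred in 3.04%, 0.183%, 0.475% and 0.00913% of all windows. A match is a match of letters only, and a window without one says only that these letters are not in it.

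Levels are given as the log2 of the scanner's processed signal, a background-subtracted fluorescence, minus that array's 75th percentile, so that 0 is the 75th percentile of an array. The 75th percentile lay at a signal of 1087 to 1456, and probes of 10 spots had a median SD of 0.092 to 0.14 on the log2 scale within an array. The scanner software marked each spot as well above background or not, and the lowest level it called well above background, here the detection limit, was −5.42 for ES, −4.84 for EHe, −6.16 for EHeD7, −5.55 for EHeD14 and −5.30 for Hepa1-6. Where a probe was dim on 1 of 2 arrays, only a lower bound of the fold was computed, from the higher of that array's limit and the probe's own value, and where it was dim on both, no fold is given. EHe had the highest limit, so a low factor was hardest to detect there, and EHeD7 the lowest. The Hepa1-6 array was scanned on a slide of its own and the other 4 arrays shared 1 slide, so slide and Hepa1-6 cannot be told apart, whereas comparisons among ES, EHe, EHeD7 and EHeD14 were within a slide. In such bulk RNA, fewer cells of a type and less RNA per cell cannot be told apart.

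The labelled cell types were checked against marker genes. In Hepa1-6, 4 of 6 hepatocyte markers were well above background (Alb, Afp, Apoa2 and Fgb), whereas Ttr and Apoa1 were not. The pluripotency markers Pou5f1, Sox2, Zfp42, Esrrb and Klf4 were well above background in ES and in all 3 hybrid samples, and of these only Klf4 was in Hepa1-6.

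Most probes of the liver-enriched factors read highest in the hepatoma, but not every gene was far higher there. All 8 genes had a probe well above background in Hepa1-6, against 5 for ES, 3 for EHe, 6 for EHeD7 and 5 for EHeD14. Of all probes kept, 75.1% were well above background in Hepa1-6, 85.3% in ES, 78.1% in EHe, 92.8% in EHeD7 and 87.4% in EHeD14, so detection over the whole array also went up from EHe to EHeD7 and was lowest in Hepa1-6. Hepa1-6 had the highest level of the 5 arrays for 10 of the 11 probes, compared with 28.8% of the 29921 probes kept that had a value on every array. The exception was Nr5a2, which was highest in ES. Hepa1-6 exceeded ES by more than 3-fold, the threshold used throughout, for 7 of 11 member probes as measured and for 6 when dim values were held at the limit, where 14.3% and 12.3% of all probes kept did so. With each gene read by its best detected probe, 4 of the 8 genes did so under either count, Foxa2, Foxa3, Onecut1 and Nr1h4. Nr5a2 was the one member more than 3-fold lower, under either count, beside 25.4% and 17.7% of all probes. The median difference of the 8 genes, each by its best detected probe, was 2.84 on the log2 scale, beside −0.40 for all probes kept. That median of all probes was itself set by the scaling, since it moved to 0.39 with arrays centred on their medians and to −0.11 after quantile normalisation. Over all probes, Hepa1-6 exceeded ES for 4287 and fell below it for 7595, and median centring turned this split to 7039 higher and 4684 lower.

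**Figure D1:**
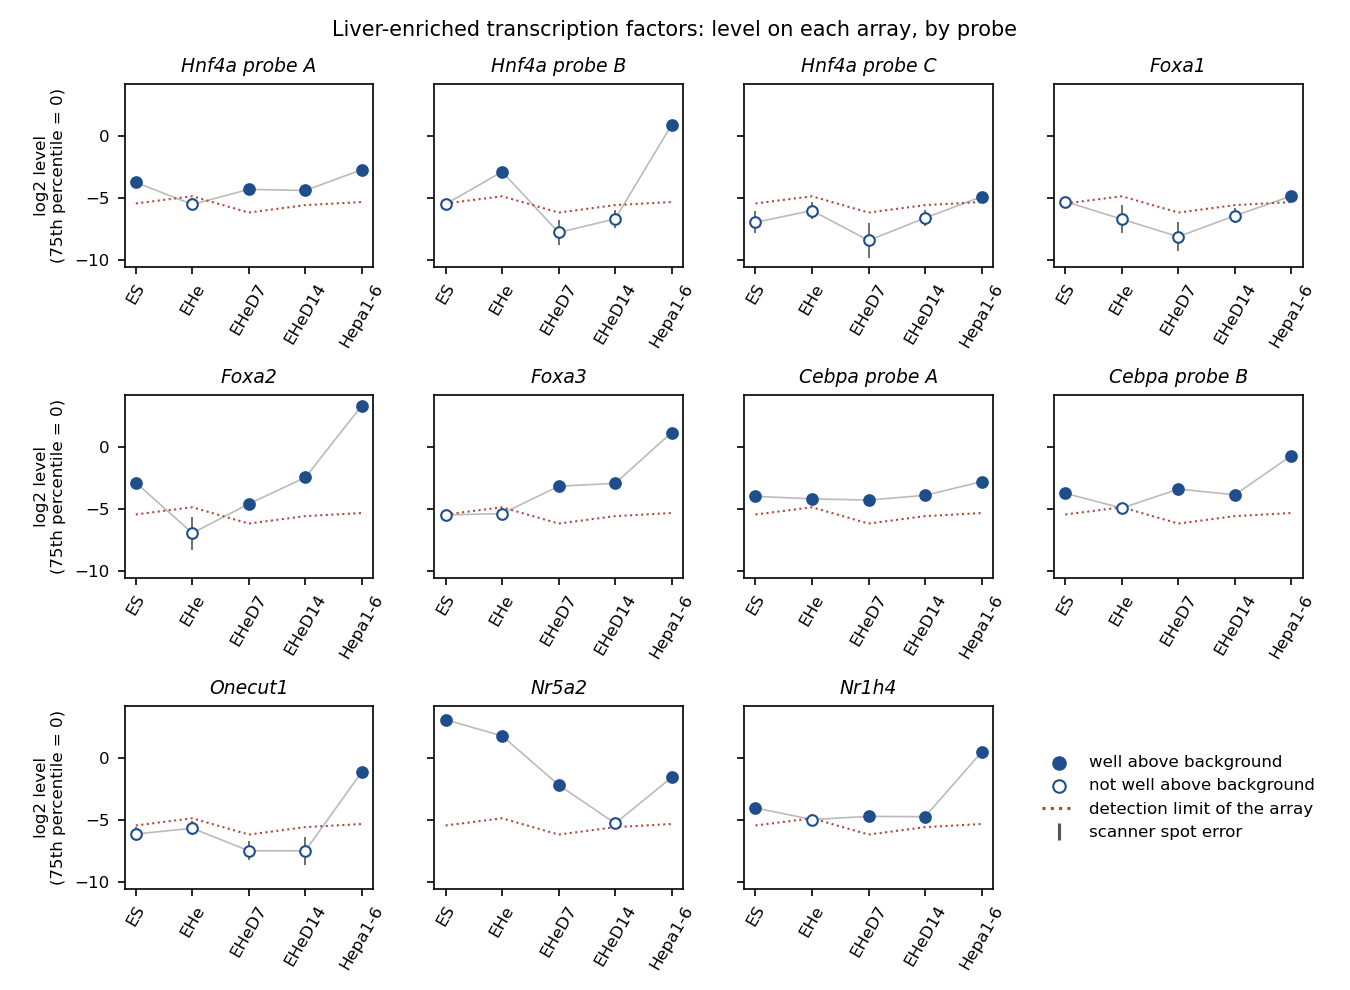
Level of each of the 11 probes on the 5 arrays: log2 processed signal relative to the array's 75th percentile, with filled circles for spots well above background, open circles for those not, a dotted line for the detection limit and bars for the scanner's spot error; each array is 1 sample. Hepa1-6 is the highest array in every panel except that of Nr5a2, where ES, at 3.13, is highest.

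Foxa2, the forkhead factor of early endoderm, had a probe that was printed in 10 spots on each array. Its level was −2.85 for ES, −6.93 for EHe, −4.57 for EHeD7, −2.43 for EHeD14 and 3.38 for Hepa1-6. The SD over its 10 spots was 0.094, 0.15, 0.11, 0.11 and 0.071 in that order. All 10 spots were well above background on every array except EHe, where none was. The processed signals of the 10 spots ran from 133 to 170 for ES, 9.14 to 21.6 for EHe, 50.1 to 63.5 for EHeD7, 222 to 275 for EHeD14 and 13690 to 16249 for Hepa1-6, and the ranges of no 2 arrays overlapped. Repeat spots share 1 labelled RNA, so this spread leaves out that between cultures.

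Hepa1-6 thus had 75.2-fold more Foxa2 signal than ES. The undifferentiated hybrid lay below both parents: Foxa2 was at least 3.97-fold lower in EHe than in ES, and at least 299-fold lower than in Hepa1-6. On differentiation it was at least 1.21-fold above EHe at day 7 and at least 5.31-fold at day 14, with a measured 4.40-fold increase from day 7 to day 14. At day 14 Foxa2 stood 1.34-fold above the ES parent, a difference within 2 scanner spot errors (0.42 with an error of 0.22 on the log2 scale). It was still 56.3-fold below the hepatoma parent.

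**Figure D2:**
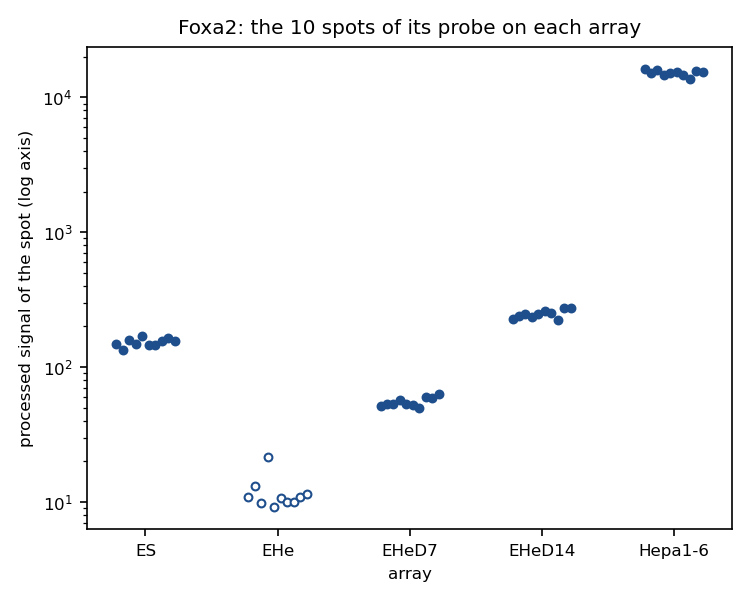
Processed signal, on a log axis, of the 10 spots of the Foxa2 probe on each array; filled points are well above background and open points are not. The spots lie between 9.14 and 21.6 for EHe, between 222 and 275 in EHeD14 and from 13690 to 16249 in Hepa1-6.

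Foxa3, the forkhead member most abundant in adult liver, followed the same order at the end points but began from no detectable signal. Its level was −5.46 for ES and −5.35 for EHe, neither well above background, then −3.14 for EHeD7, −2.90 for EHeD14 and 1.20 for Hepa1-6. It was at least 3.25-fold higher in EHeD7 and at least 3.83-fold higher in EHeD14 than in EHe, and in EHeD14 at least 5.73-fold higher than in ES. Most of this difference was present by day 7, since days 7 and 14 differed by 1.18-fold, within 2 spot errors. Hepa1-6 stood at least 98.6-fold above ES and 17.2-fold above EHeD14.

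Foxa1 was barely detected anywhere. Its processed signal was 28.2 for ES, 12.5 for EHe, 4.75 for EHeD7, 15.7 for EHeD14 and 51.6 for Hepa1-6, and the Hepa1-6 value was the sole one called well above background, against a limit of 36.8 on that array. The corresponding levels were −5.27, −6.69, −8.10, −6.41 and −4.82. Hepa1-6 was at least 1.36-fold above ES and at least 1.67-fold above EHeD14, so neither bound reached 3-fold. No fold could be given among ES, EHe, EHeD7 and EHeD14, and a change of Foxa1 on differentiation was not detectable with this probe: its spot error was 1.14 for EHe and 1.18 in EHeD7 on the log2 scale. The 3 forkhead genes therefore gave 3 different pictures in the hybrids, with Foxa2 lost in EHe and back near the ES level by day 14, Foxa3 first detected at day 7, and Foxa1 undetected in all of them.

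Of the nuclear receptors, Hnf4a gave readings that depended on the probe. Probe A, the one detected most often, read −3.72 for ES, −5.50 for EHe, −4.28 for EHeD7, −4.37 for EHeD14 and −2.69 for Hepa1-6, and was not well above background in EHe. Probe B read −5.48 for ES, −2.86 for EHe, −7.77 for EHeD7, −6.67 for EHeD14 and 0.94 for Hepa1-6, and was well above background in EHe and Hepa1-6 alone. Probe C was well above background in Hepa1-6 alone, at −4.87.

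The probes read highest in Hepa1-6 without exception, although by probe C EHe lay within 2 spot errors of Hepa1-6. Probes A and B went opposite ways in the hybrid. Between Hepa1-6 and ES, probe A showed a 2.04-fold difference, probe B one of at least 82.1-fold and probe C one of at least 1.46-fold. EHe was at least 2.18-fold below ES by probe A and at least 5.91-fold above ES by probe B. On differentiation probe B fell at least 9.84-fold by day 7 and at least 6.49-fold by day 14, whereas probe A was at least 1.47-fold and at least 1.38-fold above EHe. By probe B the undifferentiated hybrid held 13.9-fold less signal than Hepa1-6, and it was the only member probe over 3-fold higher in EHe than in ES, where 3.69% of all probes kept were as measured and 2.54% with the limit applied. Averaging the 3 probes in place of probe A turned the difference of Hnf4a from −1.78 to 0.60 on the log2 scale for EHe minus ES, from 1.22 to −2.04 for EHeD7 minus EHe and from 1.13 to −1.10 for EHeD14 minus EHe. The direction for the gene, on fusion and on differentiation, was therefore not settled by these arrays.

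Nr1h4, the bile acid receptor, was far higher in the hepatoma than in any other sample. Its level was −4.00 for ES, −4.94 for EHe, −4.69 for EHeD7, −4.71 for EHeD14 and 0.50 for Hepa1-6, and only the EHe value was not well above background. Hepa1-6 was 22.6-fold above ES and 36.9-fold above EHeD14. EHe was at least 1.78-fold below ES, and EHeD7 and EHeD14 lay within 2 spot errors of EHe and of each other. Nr1h4 therefore did not pass 3-fold on differentiation, unlike Foxa2 and Foxa3.

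Nr5a2 was the one member that read lower in Hepa1-6 than in ES. Its level was 3.13 for ES, 1.82 for EHe, −2.15 for EHeD7, −5.25 for EHeD14 and −1.54 for Hepa1-6, and the EHeD14 value was not well above background. Processed signals fell from 9504 in ES and 4558 in EHe to 295 at day 7 and 35.0 at day 14, against 502 in Hepa1-6. Each step in the order ES, EHe, Hepa1-6, EHeD7, EHeD14 was larger than 2 spot errors.

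Nr5a2 was 25.4-fold lower in Hepa1-6 than in ES, and the hybrid lay between its parents, 2.48-fold below ES and 10.2-fold above Hepa1-6. After differentiation it was 15.6-fold below EHe at day 7 and at least 134-fold at day 14, with at least 8.61-fold of this after day 7. At day 14 it was at least 13.1-fold below Hepa1-6 and at least 333-fold below ES. Pluripotency markers moved beside it: Esrrb fell 12.5-fold by day 7 and 116-fold by day 14, and Klf4 fell 17.2-fold and 41.8-fold, whereas Pou5f1 read 4.04 for EHe and 4.18 in EHeD14. The part of the pluripotent state in the Nr5a2 values was not tested.

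Cebpa, a leucine zipper factor of hepatocytes and fat cells, was the least variable member by its best detected probe. Probe A read −3.96 for ES, −4.16 for EHe, −4.26 for EHeD7, −3.87 for EHeD14 and −2.77 for Hepa1-6, well above background on all 5 arrays, so that its whole range was under 3-fold. Probe B read −3.71, −4.91, −3.37, −3.83 and −0.67 in the same order and was dim in EHe. The probes agreed that Hepa1-6 was highest, but by 2.27-fold over ES with probe A and 8.22-fold with probe B. For differentiation they differed: probe B was at least 2.77-fold above EHe at day 7 and at least 2.01-fold at day 14, while probe A moved by no more than 1.22-fold.

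Onecut1, known as HNF6, was detected in Hepa1-6 alone. Its level there was −1.08, against −6.11 for ES, −5.65 for EHe and −7.47 in both EHeD7 and EHeD14, all below the limit of their arrays. Hepa1-6 was at least 20.2-fold above ES, at least 13.5-fold above EHe and at least 22.2-fold above EHeD14. No fold can be given among the 4 other samples, and a rise up to their detection limits would have gone unseen.

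**Figure D3:**
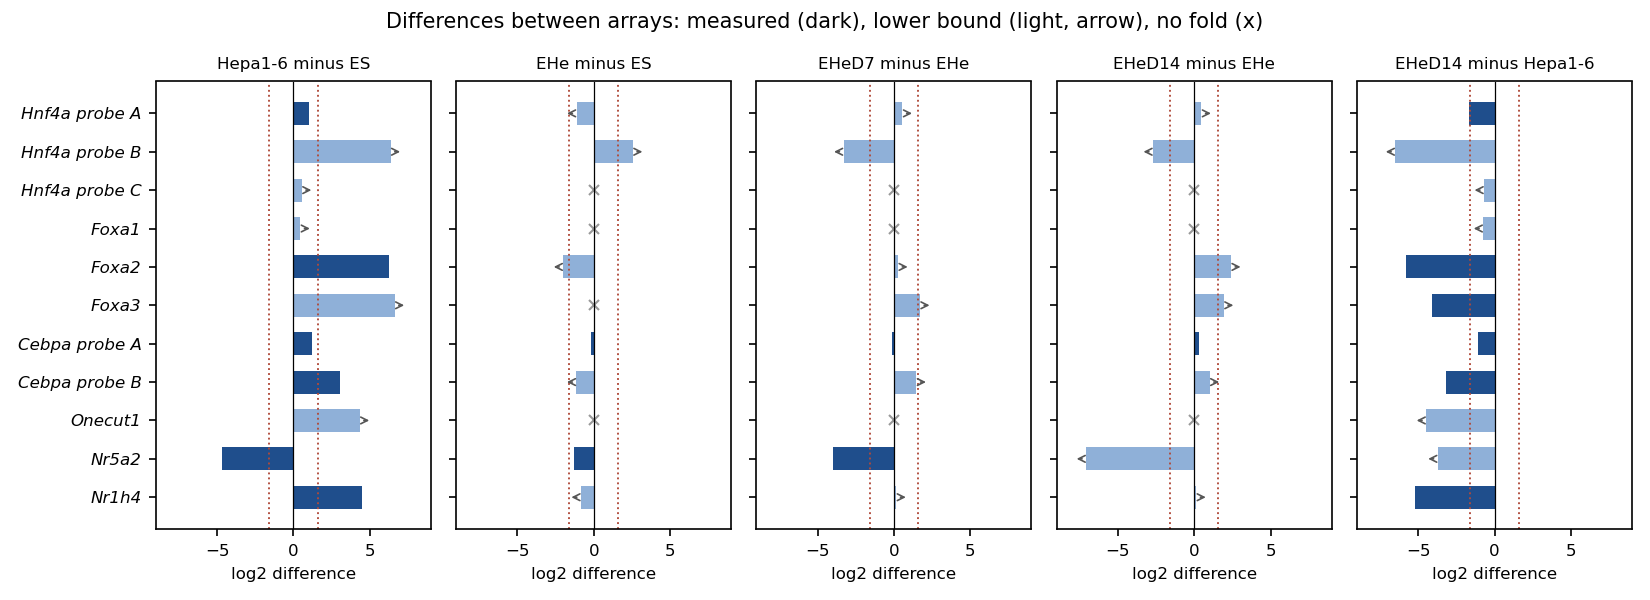
Log2 difference between 2 arrays for each of the 11 probes in 5 comparisons: dark bars were measured on both arrays, light bars with an arrow are lower bounds because 1 array was not well above background, crosses mark probes dim on both arrays or without a usable bound, and dotted lines mark 3-fold. Bars for Foxa2 and Foxa3 point right in EHeD14 minus EHe, Nr5a2 points left by at least 134-fold, and every bar in EHeD14 minus Hepa1-6 points left.

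Fusion and differentiation moved only some of the members past 3-fold. Between EHe and ES, 2 of 11 probes were lower as measured, Hnf4a probe A and Foxa2, and 1 with dim values at the limit, Foxa2, where 5.66% and 2.76% of all probes kept were lower. The median difference of the 8 genes was −1.12, beside −0.06 for all probes kept. Between EHeD7 and EHe, Foxa2 and Foxa3 were higher as measured and Foxa3 alone with the limit applied, where the share of all probes was 8% and 5.02%. Lower at day 7 were 4 probes as measured, and 2 with the limit, Nr5a2 and Hnf4a probe B, against 4.22% and 3.59% of all probes.

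Between EHeD14 and EHe, Foxa2 and Foxa3 were higher under either count, where 8.21% and 5.18% of all probes were, and 3 probes were lower as measured, 2 of them, Nr5a2 and Hnf4a probe B, with the limit, against 4.66% and 3.78%. The median of the 8 genes was 0.28 at day 14 and 0.08 at day 7, beside −0.06 and −0.08 for all probes kept, so the group as a whole did not move in 1 direction. Both days were compared with the same EHe array. From day 7 to day 14 Foxa2 was the one member past 3-fold upwards with the limit applied, where 0.624% of all probes were, and 3 probes were as measured, Foxa1 and Hnf4a probe C being dim on both days, where 1.23% were. Nr5a2 was the one downwards under either count, where 1.43% of all probes were as measured and 0.601% with the limit.

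Against the hepatoma parent, the differentiated hybrid stayed lower for nearly all the factors. EHeD14 was more than 3-fold lower than Hepa1-6 for 10 of 11 probes as measured and for 8 with dim values at the limit, where 12.7% and 11.3% of all probes kept were lower, and for no member probe higher, where 22.1% and 14.9% of all probes were. The undifferentiated EHe was lower than Hepa1-6 for 8 and 7 probes, against 14.1% and 11.3%, and higher for Nr5a2, as 21.8% and 15.7% of all probes were. For EHeD14 against Hepa1-6, the folds measured on both arrays ran from 2.15 for Cebpa probe A to 56.3 for Foxa2, and the largest bound was 90.1, for Hnf4a probe B. The median of the 8 genes was −3.91, beside 0.29 for all probes kept. Compared with the ES parent instead, EHeD14 had 1 member probe over 3-fold higher, Foxa3, and 1 lower, Nr5a2, under either count, where 9.2% and 6.66% of all probes were higher and 7.55% and 5.86% lower.

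The size of these differences was smaller with normexp correction, computed from median spot signals with an added offset, in place of the scanner's processed signal, and which of these steps made it so was not tested. For Hepa1-6 minus ES the log2 difference was then 4.37 for Foxa3 in place of 6.66, 4.15 for Hnf4a probe B in place of 6.41, 2.43 for Onecut1 in place of 5.03, 3.23 for Nr1h4 in place of 4.50 and 2.14 for Cebpa probe B in place of 3.04. These 5 readings, with Foxa2 at 5.54 in place of 6.23, stayed over 3-fold, but the bounds and folds given above hold for the processed signal and not for this correction. Likewise EHeD14 minus EHe was 1.85 for Foxa2, 0.96 for Foxa3 and −4.91 for Nr5a2 on the log2 scale, in place of 4.50, 2.45 and −7.07, so Foxa3 no longer passed 3-fold although its direction held. At day 7 neither Foxa2 (0.67) nor Foxa3 (0.91) passed it. Hnf4a probe B likewise kept its direction at −1.43 for EHeD14 minus EHe and 1.00 for EHe minus ES, both under 3-fold, and Foxa2 remained over 3-fold lower in EHe than in ES, at −1.62.

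The relatives of the members within their own families were read for comparison. Of 11 paralogs 10 were named on the array. Hepa1-6 exceeded ES by over 3-fold for 4 of these, beside the 14.3% of all probes given above, while 1 was lower, beside 25.4%. Onecut2, the nearest relative of Onecut1, was 88.4-fold higher and was well above background on all 5 arrays, so unlike Onecut1 it could be read in the hybrids, where it lay between −4.13 and −4.89. Cebpb, an acute-phase factor, was 15.2-fold higher and Cebpg 3.01-fold higher, whereas Onecut3 was 6.31-fold lower. In EHe against ES, 2 paralogs were higher, Cebpd by 3.47-fold and Nr5a1 by 3.41-fold. Another 2 were lower, Onecut3 by 3.70-fold and Nr1h3, the oxysterol receptor LXR-alpha, by at least 6.20-fold. Of all probes, 3.69% were higher and 5.66% lower as measured, and 2.54% and 2.76% with the limit applied. On differentiation 1 paralog of 10 passed 3-fold, Nr1h3, at least 3.53-fold higher at day 7 and at least 3.65-fold at day 14, beside 5.02% and 5.18% of all probes with the limit applied.

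Other liver-enriched transcription factors went both ways between the parents, as all probes did. Of 22 listed, 21 were named, with 4 higher in Hepa1-6 than in ES with the limit applied and 4 lower, beside 12.3% and 17.7% of all probes. Hhex, a homeobox factor of the liver bud, was 9.44-fold higher, and Nr2f2 and Zbtb20 at least 69.7-fold and at least 58.8-fold higher. Gata6, a factor of endoderm, was at least 119-fold lower in Hepa1-6, and Tbx3, which acts in hepatoblasts and in pluripotent cells, was 6.08-fold lower. At day 14 Gata6 was 3.64-fold and Hlf at least 7.39-fold above EHe, while Tbx3 was 27.3-fold and Atf5 3.87-fold below it. The median of this list was −0.08 between Hepa1-6 and ES and 0.52 between EHeD14 and EHe, beside −0.40 and −0.06 for all probes kept. Of 9 coactivators and corepressors of the nuclear receptors, none passed 3-fold between Hepa1-6 and ES. As measured, 14.3% of all probes were higher in that comparison and 25.4% lower. At day 14, 1 of the 9, Ppargc1b, was 3.18-fold below EHe, where 4.66% of all probes were lower as measured.

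The hepatocyte genes that these factors are known to bind were mostly undetected in the hybrids. Of 20 genes listed 17 were named, and 11 were well above background on some array, 3 of them in EHe, 6 in EHeD7 and 4 in EHeD14. Between Hepa1-6 and ES 6 of 17 were over 3-fold higher in the hepatoma under either count, beside 14.3% and 12.3% of all probes. As measured but not with the limit applied, 1 was lower, Slc2a2, beside 25.4% of all probes as measured. Among the higher ones were Alb at least 2857-fold, Afp 1768-fold, Fgb at least 1113-fold, Apob 25.2-fold and Apoa2 at least 3.96-fold. In the comparison of EHeD7 or EHeD14 with EHe, 0 of 17 were over 3-fold higher with the limit applied, beside 5.02% and 5.18% of all probes. As measured, Apob was over 3-fold higher at day 7. None of the 6 hepatocyte markers was well above background in EHe, EHeD7 or EHeD14. The log2 of their summed level was −4.14, −4.80 and −3.84 in these samples, −2.80 in ES and 7.66 in Hepa1-6. The rise of Foxa2 and Foxa3 at day 14 was thus seen in samples where Alb and Afp were below detection.

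Genes of bile acid handling, which Nr1h4 and Nr5a2 control in liver and gut, were all named on the array, 14 of 14, and 11 were detected on some array. In Hepa1-6 against ES 3 were higher and 5 lower as measured, beside 14.3% and 25.4% of all probes. With the limit applied 2 were higher and 3 lower, beside 12.3% and 17.7% of all probes. These 3 were Slc51a, at least 23.7-fold, Klb, 5.05-fold, and Fgf15, 3.70-fold. Cyp27a1, of the alternative route of bile acid synthesis, was 11.8-fold above ES in the hepatoma, and 3.37-fold above EHe in EHeD14. Cyp7a1, the rate-limiting enzyme of the classical route, was not well above background on any array. Fgf15, a target of Nr1h4 in the intestine that is also made in the embryo, was 28.6-fold higher at day 7 and 18.8-fold at day 14 than in EHe, although Nr1h4 itself did not pass 3-fold. Slc51a, a subunit of a bile acid exporter, was 8.40-fold and 6.62-fold lower, and Klb, the co-receptor for this ligand, 5.50-fold and 9.98-fold lower.

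**Figure D4:**
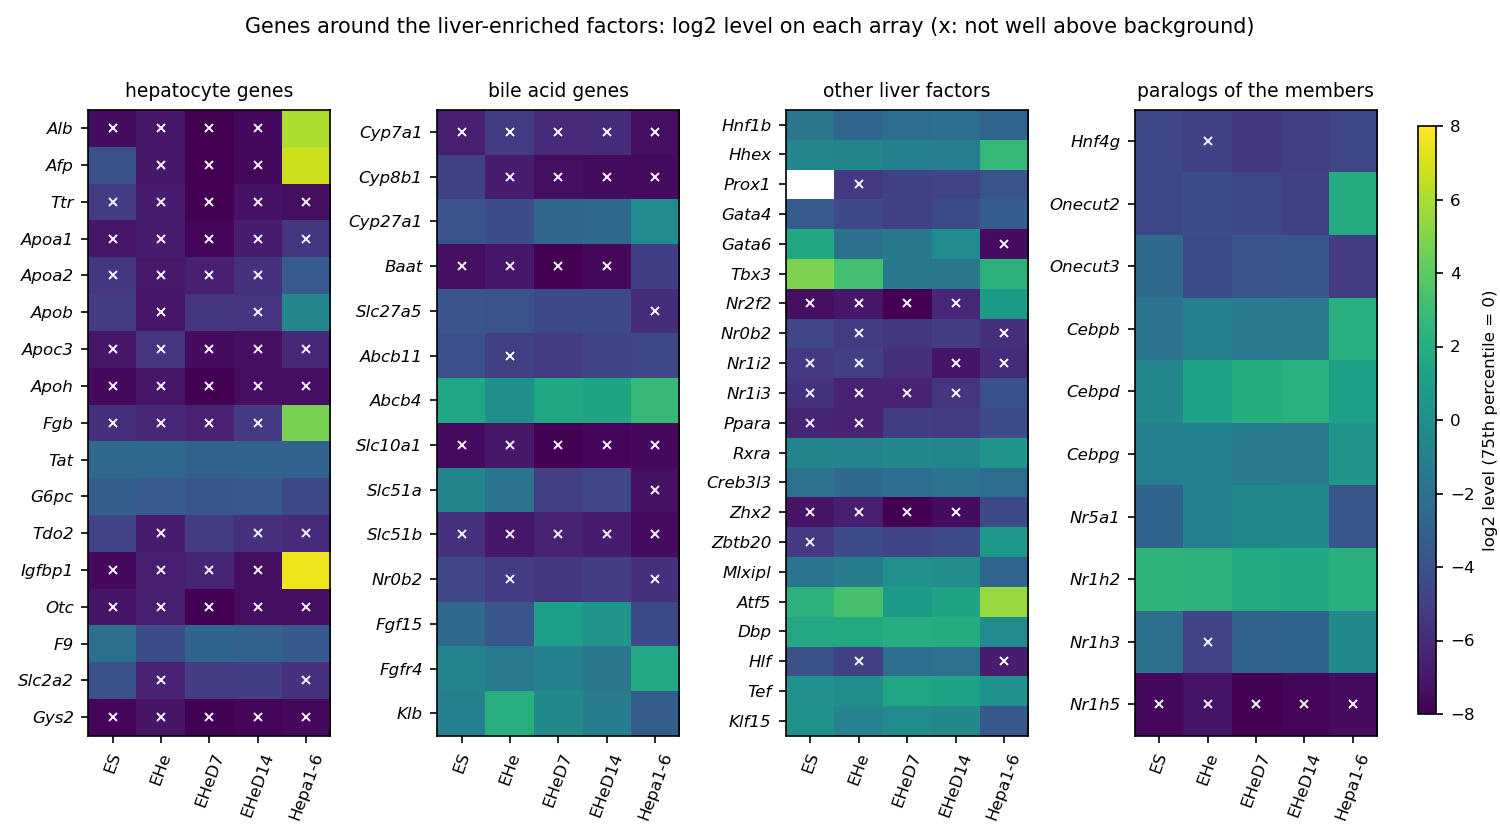
Log2 level relative to the array's 75th percentile, as colour, of hepatocyte genes, bile acid genes, other liver-enriched factors and paralogs of the members on each array; crosses are spots not well above background and the blank cell is an outlier spot. Colours are to be read along a row, since probes differ in brightness: Alb, Afp and Fgb are detected at high level in Hepa1-6 and carry crosses in all 3 hybrid samples.

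Because the forkhead genes Foxa1 and Foxa2 are also expressed in early endoderm and the node, markers of these tissues were read beside them. Of 6 definitive endoderm markers, 4 were well above background in ES, 2 for EHe, 4 for EHeD7, 5 for EHeD14 and 0 for Hepa1-6, and the log2 of their summed level was −0.69, −1.96, 0.97, 1.30 and −4.32. From EHe to EHeD14 Sox17 rose 4.69-fold, Gsc at least 11.7-fold and Eomes 15.7-fold. These were 3 of 6 over 3-fold higher with the limit applied, beside 5.18% of all probes. Cer1 rose at least 1.34-fold, and Cxcr4 read −4.91 for EHe and −5.17 for EHeD14, without a usable bound. Mixl1 was not detected on any array. Of 8 visceral and primitive endoderm markers, 8, 7, 8, 8 and 5 were well above background in the same order. Dab2 and Cubn, proteins of endocytosis in this tissue, were 6.43-fold and 7.83-fold lower in EHe than in ES and 12.2-fold and 18.1-fold higher in EHeD14 than in EHe. In all, 4 of the 8 were over 3-fold lower in EHe than in ES under either count, beside 5.66% and 2.76% of all probes. In EHeD14 against EHe, with the limit applied, 4 were higher and 1, Rhox5, was 12.8-fold lower, beside 5.18% and 3.78% of all probes. Sox7, in contrast, was 1.24-fold lower in EHe than in ES and 8.05-fold and 2.54-fold below EHe at days 7 and 14, and Gata4 differed by 1.12-fold between EHeD14 and EHe. The log2 of the summed level of this list was 5.82, 6.36, 2.38, 3.60 and 6.14, a sum carried by Rhox5, which read 5.66, 6.34, 1.11, 2.65 and 6.13. Of 4 node markers named, T was at least 88.0-fold higher at day 7 and at least 93.7-fold at day 14 than in EHe, and Shh was not detected. Nog was 1.21-fold and 1.42-fold above EHe at the 2 days, and Chrd 1.19-fold and 1.20-fold below it. Of 4 gut and pancreas markers 2 were detected, Cdx2 and Vil1, with Pdx1 and Shh below detection on every array. The part of endoderm or node cells in the Foxa2 and Foxa3 values was not tested.

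The 4 genes that the study assayed after silencing of Foxa1, read here as Tgfa, Junb, Egfr and Cdkn2a, were well above background on every array. The study assayed p16INK4a, whereas the probe here is named only by its gene, Cdkn2a. Which Cdkn2a transcript this probe reads was not analysed. All 4 genes stood more than 3-fold higher in the hepatoma than in ES, from 3.66-fold for Junb to 121-fold for Egfr. Of all probes, 14.3% did so as measured and 12.3% with the limit applied. The Cdkn2a probe was 19.3-fold higher in Hepa1-6 than in ES. By RT-PCR, in contrast, the study reported p16INK4a and p19ARF as undetectable in the hepatoma cells. The source of this difference was not tested. Tgfa and Egfr, a growth factor and its receptor, were 5.42-fold and 6.34-fold higher in EHeD7 than in EHe. In EHeD14 they were 4.16-fold and 4.33-fold higher than in EHe. The Foxa1 probe was not well above background in these samples, but it was dim even in Hepa1-6 (51.6 against a limit of 36.8). It therefore cannot show that Foxa1 was absent. The study measured Foxa1 RNA and protein in differentiated hybrid cells. After silencing it reported less Tgfa and Egfr, more p16INK4a and no change of Junb. Whether Foxa1 acts on Tgfa or Egfr was not tested here. Junb was 1.25-fold and 1.22-fold above EHe at the 2 days and Cdkn2a 1.54-fold and 2.11-fold below it, so 2 of the 4 passed 3-fold on differentiation, beside 8% and 8.21% of all probes as measured. The study chose these genes in the same system, so their direction is not independent evidence.

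For the members whose best detected probe spanned more than 3-fold as measured, the genes with the nearest profile over the 5 arrays were found. The measure was the root mean square difference of log2 levels after centring each probe on its mean. Only named probes well above background on the same arrays were compared. Foxa3 had the closest, 9930014A18Rik at 0.19 and Osmr, the oncostatin M receptor, at 0.31. Hnf4a probe A lay nearest Sh3d21 (0.25) and Rsad1 (0.26), Onecut1 nearest Lipo3 (0.34) and Iigp1 (0.39), and Nr1h4 nearest Cpeb2 (0.34) and Pogk (0.35). Foxa1 lay nearest D6Ertd527e (0.36) and Nebl (0.37). The Onecut1 and Foxa1 profiles each rest on 4 arrays where the probe was not well above background, and no bound on Foxa1 passed 3-fold. Nr5a2 was nearest Phf11a (0.59) and Zscan4c (1.05), the latter a gene of early embryos and ES cells, among 32 probes detected on the same arrays. Foxa2 had no near match, the closest being Glipr1 at 0.75 and Cd274 at 0.86. With 5 arrays and between 32 and 350 probes compared for a member, close profiles are a description only.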

How the data were processed

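The authors deposited, for each array, the scanner tables of Agilent Feature Extraction 10.7.3.1, whose processed signal is a fluorescence intensity after background subtraction; the value table deposited for the series held the same numbers. Per the labels the dye was Cy3, whereas the study's methods give Cy5. Genome build and probe sequences are not given in the sources used here.

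From 45018 spots per table, 43379 non-control spots were used and outlier spots left out. Spots of a probe were averaged, the 75th percentile of an array subtracted from its log2 intensities, and 29975 probes kept that were well above background on at least 1 array. Probes were named through RefSeq accessions (26888 of 41174). A gene stands by its lead probe, that well above background on most arrays, ties broken by mean level. No statistical test was made, since each condition had 1 array. The members, lists and the 3-fold threshold were chosen with earlier results of these data known. At most 5 genes a list were to be named, those past 3-fold first in list order; further ones (Nr1h3, Nr5a1, Zbtb20, Atf5, Hlf, Klb, Slc2a2) were named after their values were seen. Alternatives were quantile and median scaling, normexp (offset 50, on median spot signals, limma 3.58.1 in R 4.3.3), dim values at the limit, outlier spots kept, means over probes, other filters and a 2-fold threshold. Scripts ran in Python 3.11.15 with pandas 2.3.3 and were tested on simulated data.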

Additional observations from a re-analysis of the deposited data

How the results depend on the processing

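No paired analysis was possible because there was 1 array for every population, and no array could be left out of a comparison. Of 272 alternative values for the member differences, 207 moved by less than the spot error. In all, 12 had the opposite sign to the value reported. In 1 of these the reported difference was past 3-fold, Hnf4a between EHe and ES, which went from −1.78 to 0.60 with the mean of its probes, which includes probe B. The same mean gave −2.04 and −1.10 for Hnf4a at days 7 and 14 against EHe, in place of 1.22 and 1.13, and 0.72 for Cebpa at day 7, in place of −0.10. The other 8 were differences of Foxa1, Foxa3, Onecut1, Hnf4a probe C, Cebpa probe A and Nr1h4 under 3-fold, with normexp or dim values at the limit.

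For the lead probes of the 8 genes, those lower in EHe than in ES numbered 2, and 1 with normexp, with dim values at the limit or with means over probes, and 4 at a 2-fold threshold. Those higher at day 7 than in EHe numbered 2, and 0 with normexp and 1 with dim values at the limit, and those lower numbered 2, and 1 with quantile normalisation, normexp or dim values at the limit. At day 14, 2 were higher, 1 with normexp, and 2 lower, 1 with normexp or dim values at the limit. The 12 counts named here are those of 64 that moved.

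Over all probes kept, counts are given as higher and lower. Hepa1-6 against ES gave 4287 and 7595, with 7039 and 4684 under median centring, 2506 and 3386 under normexp, and 2366 and 2793 among probes well above background on all 5 arrays. EHe against ES gave 1105 and 1697, with 231 and 393 under normexp, 361 and 351 on all 5 arrays, 2765 and 3692 at 2-fold, and 835 lower with dim values at the limit. EHeD7 against EHe gave 2398 and 1263, with 899 and 498 under normexp, 666 and 388 on all 5 arrays, 4458 and 3207 at 2-fold, and 1518 higher with dim values at the limit. EHeD14 against EHe gave 2459 and 1397, with 950 and 610 under normexp, 694 and 466 on all 5 arrays, 4377 and 2824 at 2-fold, and 1568 higher with dim values at the limit. The cause of these moves was not tested, apart from filters that test fewer probes. Keeping outlier spots moved none of these counts past 1.5 times. Signals near the detection limit, those of Foxa1 in all samples and of Onecut1 outside Hepa1-6, limit what can be read for these genes.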
